A study of Mus musculus and Rattus norvegicus with 28 samples.

Results

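Promoters that lacked a called accessible region only at postnatal day 1 (P1) were collected from perinatal mouse cardiomyocytes. Overlapping ATAC-seq peaks of 8 libraries were merged into 113857 regions, of which 34140 lay at promoters, with the midpoint within 2.5 kb of a transcript start. The members were chosen by the measured presence of peaks: a peak in both libraries of embryonic day 18.5 (E18.5), of P3 and of P7, and in neither P1 library. This left 656 promoter regions, nearest to 652 genes. The missing P1 peak and every measure from the peak lists therefore describe the choice and were not tested. The cells were cardiomyocytes isolated from left ventricles of wild-type C57BL/6 mice of both sexes at E18.5, P1, P3 and P7, with 2 ATAC-seq and 2 RNA-seq libraries at each time point and no treatment. ATAC-seq finds open chromatin by where a transposase can insert, and RNA-seq was used to ask whether transcripts of the same genes were lower when the peak was missing. The study's methods call the libraries of a time point biological replicates, and whether each came from 1 animal or a pool is not given in the sources used here, so p-values measure the spread between these libraries.

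A promoter is the stretch around a transcript start where general factors and RNA polymerase II assemble, and active promoters keep a gap in their nucleosomes that a transposase can enter. Many mouse promoters lie in CpG islands, which are rich in G and C and open in most cell types. SP1 and KLF factors bind GC boxes in such islands, and NFY binds the CCAAT box and helps to keep nucleosomes off the start.

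The sequences show GC boxes and base composition of members at genes described here: Kdr encodes the main VEGF receptor of endothelial cells, Nfkbiz a nuclear regulator of NF-kappa B targets, Cemip a hyaluronan-binding protein, and the Senp1 region lies beside a Pfkm start. Each was read from the GRCm38.p6 (mm10) reference on the plus strand, outside exons that GENCODE annotates as UTR or coding. Capitals mark a GC box, GGGCGG, on either strand, and no CCAAT box was found in these stretches. The Kdr stretch, 284 bases at chr5:75978459-75978742, held 2 GC boxes, had 61.3% GC and lies just upstream of the Kdr start. The Nfkbiz stretch, chr16:55838900-55839199, held 1 GC box and had the lowest GC content of those shown, 56.0%. The Cemip stretch, chr7:84086503-84086802, held 2 GC boxes and had 72.7% GC. The Senp1 and Pfkm stretch, chr15:98093252-98093282, is the 31 bases of that region outside annotated UTRs, with 71.0% GC and no GC box.
Kdr: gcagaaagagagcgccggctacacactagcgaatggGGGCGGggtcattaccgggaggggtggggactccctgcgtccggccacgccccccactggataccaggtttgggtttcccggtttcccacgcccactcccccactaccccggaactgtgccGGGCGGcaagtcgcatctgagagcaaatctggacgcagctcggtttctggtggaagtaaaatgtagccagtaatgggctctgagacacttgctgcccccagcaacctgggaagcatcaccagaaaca
Nfkbiz: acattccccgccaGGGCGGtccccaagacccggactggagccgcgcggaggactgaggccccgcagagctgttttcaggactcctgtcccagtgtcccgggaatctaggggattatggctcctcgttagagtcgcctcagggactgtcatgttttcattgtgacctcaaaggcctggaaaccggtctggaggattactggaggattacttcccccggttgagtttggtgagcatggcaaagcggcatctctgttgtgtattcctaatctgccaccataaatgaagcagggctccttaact
Cemip: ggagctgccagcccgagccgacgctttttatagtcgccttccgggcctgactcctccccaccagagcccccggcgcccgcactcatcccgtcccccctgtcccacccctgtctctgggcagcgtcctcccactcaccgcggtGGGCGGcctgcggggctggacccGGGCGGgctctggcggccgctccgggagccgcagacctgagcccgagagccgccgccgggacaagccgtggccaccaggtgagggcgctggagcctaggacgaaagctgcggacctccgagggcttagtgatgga
Senp1 and Pfkm: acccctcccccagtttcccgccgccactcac

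Of the promoters with a peak in all 6 libraries of E18.5, P3 and P7, 7396 in number, 4521 (61.1%) also had a peak in both P1 libraries, 2219 in 1 P1 library and 656 (8.87%) in neither. Among the 1461 regions away from promoters with a peak in the same 6 libraries, 7.19% had none at P1. The same pattern with the gap at another time point held 273 promoters for E18.5, 3 for P3 and 1 for P7. The 2 P1 lists were not equal: of the 2219 promoters with a peak in 1 P1 library, 2150 were in the first P1 library and 69 in the second. Dropping the first P1 library raised the members to 2806, while dropping the second raised them to 725. Without the first or the second E18.5 library there were 1000 and 1266 members.

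At P1 the lists counted 29281 and 19753 peaks, against 13149 and 14910 at E18.5, 95257 and 52040 in the P3 lists, and 49113 and 35898 in the P7 lists. The P1 lists were thus longer than the E18.5 lists, but their peaks were narrower, with median widths of 181 and 191 bp against 287 to 393 bp in the other 6 lists. Peak names of the first E18.5 and the first P7 list carry the same prefix, although these lists shared 1 identical interval, so they are not copies of each other. Names in both P1 lists and the second E18.5 list begin with ZJ1216, and those in the P3 and P7 lists do not. What these names stand for is not given, and their part in the gap was not tested. The part of list length and width in the gap at P1 was only described: when every list was cut to its 13149 peaks of highest score, 265 promoters met the rule, of which 35 were among the 656. The remaining members dropped out because a peak in another list was removed. The cut also shortened both P1 lists, so a promoter outside the 656 could meet the rule because its own P1 peak was removed. The first P3 list kept its peak at 75 members and the second E18.5 list at 544. The Senp1 and Pfkm region was not among the 35.

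Members were weaker peaks at the time points that held them. Fold enrichment, the ratio of signal to local background at a peak's summit, had a median of 5.46 and 5.24 over members in the E18.5 libraries, against 7.56 and 6.94 at the 4521 promoters with a peak in all 8 libraries. At P3 the medians were 6.22 and 6.98 against 8.59 and 10.1. At P7 they were 4.90 and 5.03 against 7.03 and 7.12. The promoters with a peak in 1 P1 library lay between, for instance at 6.07 in the first E18.5 library. Ranked within its own list, with 100 the strongest, the median member stood at 38.8 and 38.0 at E18.5, where the promoters found in all 8 libraries stood at 76.2 and 76.8. At P3 its rank was 68.1 and 63.2 and at P7 it was 58.4 and 65.0, in lists that hold more peaks. Members above the median of their list in all 6 libraries numbered 78 (11.9%), against 2973 (65.8%) of the promoters with a peak everywhere.

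**Figure D1:**
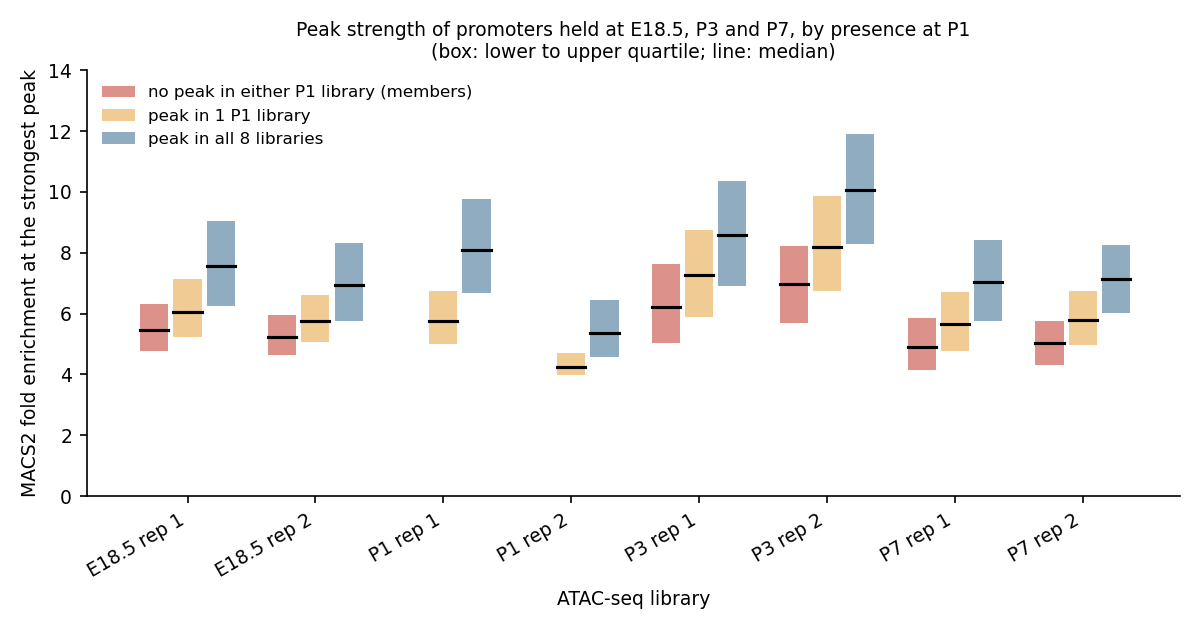
Fold enrichment of the strongest peak per promoter (vertical axis, a ratio) in each ATAC-seq library (horizontal axis), with boxes from the lower to the upper quartile and a line at the median. Members (red) have no values at P1, and their medians, 4.90 to 6.98, lie below those of promoters with a peak in all 8 libraries (blue) in each of the 6 other libraries.

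The stronger the peak at the other time points, the smaller was the share of promoters without a P1 peak. When the 7396 promoters were ranked by their mean E18.5 fold enrichment and split into 5 groups, 22.7% of the lowest quintile were members, then 12.7%, 5.75% and 2.77%, and 0.406% of the highest. By strength at P3 the share went from 22.2% to 1.15%, and by strength at P7 from 23.9% to 0.27%. In the lowest quintile at E18.5, 34.6% had a peak in both P1 libraries.

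**Figure D2:**
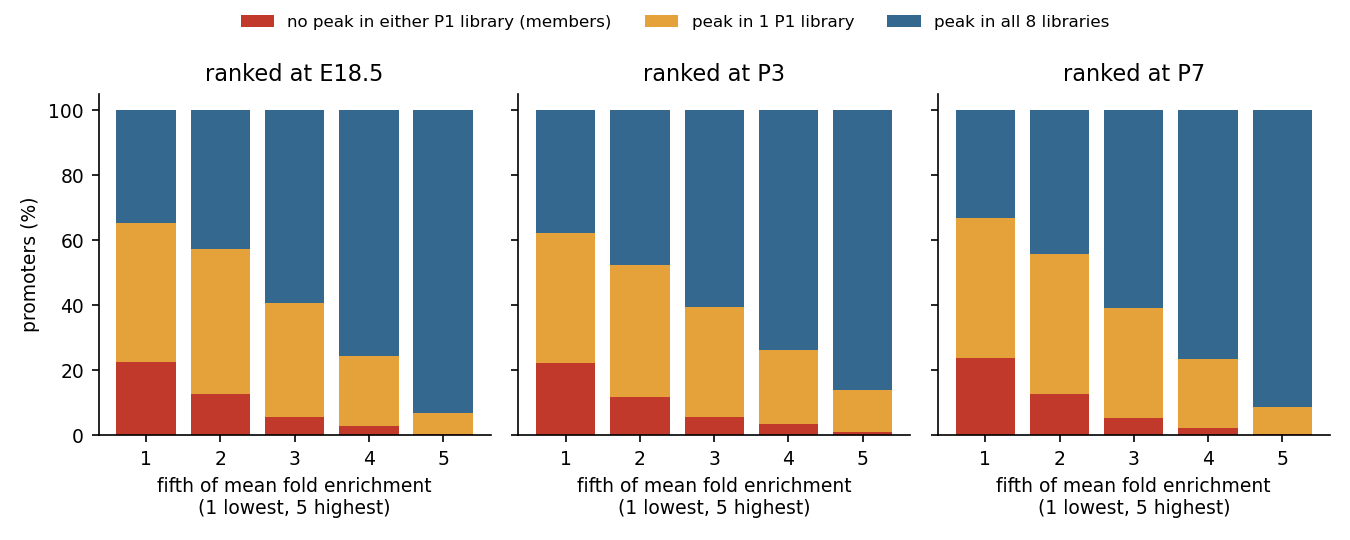
Percentage of the 7396 promoters (vertical axis) with a peak in neither, 1 or both P1 libraries, in quintiles of their mean fold enrichment at E18.5, P3 or P7 (horizontal axis). Members, in red, take 22.7% of the weakest and 0.406% of the strongest quintile at E18.5.

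The members with the highest smallest fold enrichment over the 6 libraries were Dph6 at 6.78, Ppp1r8 at 6.71, Gm9776 at 6.69, Nkapd1 at 6.60, Lsm6 at 6.58, Fa2h at 6.43, Nfkbiz at 6.41 and Nanp at 6.40. Dph6 acts in the synthesis of diphthamide on elongation factor 2, and its region on chr2:114654256-114655139 had fold enrichments of 7.67 and 6.78 at E18.5, 10.9 and 10.7 at P3 before 8.13 and 6.82 at P7. The nearest peak of either P1 library was 300072 bp away. Lsm6, a subunit of RNA-binding rings in splicing and mRNA decay, reached 12.2 in the second P3 library. These genes spanned a wide range of RNA. Ppp1r8, a nuclear inhibitor of protein phosphatase 1, had 30.6 and 25.8 FPKM (fragments scaled to transcript length and library size) at P1. Fa2h, a fatty acid hydroxylase, had at most 0.192 FPKM in any library, so a promoter peak there came with almost no transcript. The weakest was Tspan9, a tetraspanin, at 2.33 in the first P7 library, with ranks of 3.30 and 43.8 in the E18.5 lists.

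Most members lay on a transcript start. The midpoint was a median of 116 bp from the start, 508 (77.4%) lay within 250 bp, and the merged region was 882.5 bp wide at the median. The nearest gene was protein-coding for 599 (91.3%), antisense for 15 and lincRNA for 11. Protein-coding starts on both strands within 500 bp were found at 46 members (7.01%), at 10.1% of promoters with a peak in 1 P1 library and at 12.4% of those with a peak in all 8. The member farthest inside the limit was at Gm18407, 2246 bp from its start, and the nearest region outside it was at Sfi1, 2515 bp away. The closest P1 peak was a median of 15563 bp away, and 80.3% of members had none within 5 kb. A P1 peak stopped short of the region by at most 250 bp at 7 members, the closest being Cd24a at 141 bp, Myc at 175 bp and Mafg at 177 bp. Of the 652 genes, 160 (24.5%) had another promoter region with a peak in at least 1 P1 library.

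Members resembled other steadily open promoters in base composition. In the 401 bases around the midpoint, GC content was 66.3% at the median, against 65.6% at promoters with a peak in all 8 libraries and 55.9% over all promoter regions. The observed over expected CpG ratio was 0.80, 0.82 and 0.43. The GC box GGGCGG was found on either strand at 75.2%, 76.6% and 39.5%, and the ETS site CCGGAAG at 18.9%, 19.2% and 8.78%. The AP1 site TGANTCA was at 6.71%, 5.82% and 17.3%, and the MEF2 site, searched by its consensus, at 1.52%, 1.13% and 2.86%. The NRF1 site GCGCATGC, the CRE TGACGTCA, the YY1 site AAGATGGC, the E-box CACGTG and the TATA box TATAAA were at 4.27%, 3.05%, 4.42%, 11.7% and 4.57% of members, against 4.43%, 3.36%, 5.55%, 11.3% and 4.34% of promoters with a peak in all 8 libraries. The TATA box can lie inside the MEF2 site, and no other pair of motifs overlaps in full.

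Of the 10 motifs searched, the CCAAT box differed most between members and promoters with a peak in all 8 libraries, a description that was not tested. It was found at 180 members (27.4%), at 32.2% of promoters with a peak in 1 P1 library, at 45.4% of those with a peak in all 8 and at 35.3% of all promoter regions. The share moved with strength, from 33.5% in the lowest to 55.8% in the highest quintile of E18.5 fold enrichment among promoters with a peak in all 8 libraries. Within the 4 lower quintiles it was 28.0%, 26.6%, 23.5% and 34.1% at members, against 33.5%, 39.8%, 39.1% and 46.2% at promoters with a peak in all 8. The fourth of these rests on 41 members, and the highest quintile holds 6. Promoters with a peak in 1 P1 library had 27.2%, 33.4%, 33.3% and 33.0% in the same quintiles, so members lay below them in the second and the third quintile alone.

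**Figure D3:**
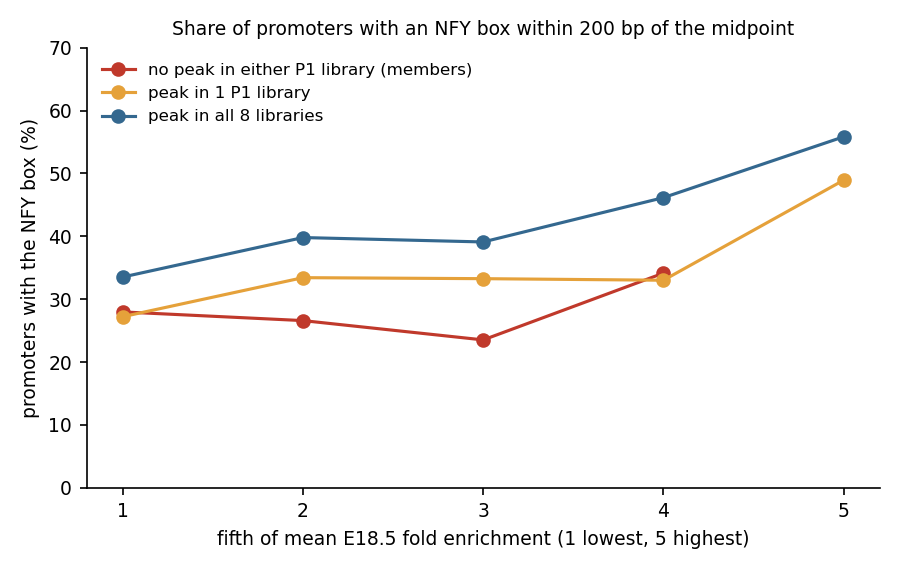
Percentage of promoters with CCAAT on either strand within 200 bp of the midpoint (vertical axis) by quintile of E18.5 fold enrichment (horizontal axis), for promoters with a peak in neither, 1 or all P1 libraries; points with fewer than 20 promoters are left out. Members (red) lie below promoters with a peak in all 8 libraries (blue) in each of the 4 quintiles shown.

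The RNA, which the choice of members did not use, was present at P1 for most member genes. Of the 652 genes, 526 (80.7%) had at least 1 FPKM in both P1 libraries, and 7 were at 0 in every library. The member regions had no P1 peak, but 160 of the 652 genes had another promoter region with one. In the single P1 libraries 81.7% and 82.5% of member genes reached 1 FPKM. For genes of promoters with a peak in all 8 libraries it was 87.5% and 88.2%. The median level of member genes was 6.16 and 5.12 FPKM at E18.5, 6.52 and 6.75 at P1, then 6.81 and 7.15 at P3 before 6.70 and 6.72 at P7. The P1 libraries thus sat above both E18.5 libraries and close to the rest. Genes of promoters with a peak in all 8 libraries moved the same way, from 10.2 and 9.46 FPKM at E18.5 to 10.7 and 11.04 at P1. These levels were not divided by size factors, which were 0.968 and 0.925 at E18.5 and 1.04 and 1.05 at P1. Genes of promoters with a peak in all 8 libraries had higher medians in every library, from 9.46 to 11.04 FPKM. At P1 the mean level of the median member gene in the lowest quintile of E18.5 fold enrichment was 7.56 FPKM against 10.8 FPKM for promoters with a peak everywhere, and in the second quintile 5.53 against 11.2 FPKM, values that were not tested. Of the 561 member genes that passed the filter and were tested, 86 (15.3%) had their lowest mean at P1. The share was 12.5% of all 13979 genes tested and 10.6% for genes of promoters with a peak in all 8 libraries. The lowest mean was at E18.5 for 291 member genes (51.9%), against 48.7% and 48.2% in the same order. These shares come from FPKM without size factors and were not tested.

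Genes were compared on log2(FPKM + 1) with limma and a call needed both an adjusted p below 0.05 and a change of more than 1 on the log2 scale. From E18.5, with the peaks called, to P1, with none called, 56 of the 561 member genes rose (9.98%) and 31 fell (5.53%). The background over all genes tested was 10.1% and 6.06%. The median log2 fold change of member genes was 0.20, against 0.15 for all genes and 0.14 for genes of promoters with a peak in all 8 libraries. The split depended on the scaling: on TPM 104 rose and 27 fell, beside 16.6% and 5.73% of all genes, with a median of 0.33 over all genes, and with size factors 42 rose and 38 fell, beside 7.93% and 7.75%, with a median of 0.03. From P1 to P3, when peaks were called again, 0 member genes rose or fell in limma, beside 0.0143% and 0.0% of all genes. At an unadjusted p under 0.05 there were 49 of 561 (8.73%), against 1577 of 13979 (11.3%), and the median log2 fold change was 0.04. From P1 to P7, 13 member genes rose and 15 fell, 2.32% and 2.67%, beside 3.45% and 5.46%. P1 against the mean of the other 3 time points, the contrast shaped like the peak pattern, gave 5 higher (0.891%) and 3 lower (0.535%), beside 1.6% and 0.83%. From E18.5 to P7, both with the peaks, 91 rose (16.2%) and 41 fell (7.31%), beside 15.4% and 12.3%. Without the second E18.5 library the shares called lower at P1 were 6.59% of member genes and 5.67% of all genes in the comparison with E18.5, and 0.891% and 0.808% in that with the mean of the other time points. These comparisons share libraries and are not independent of each other.

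**Figure D4:**
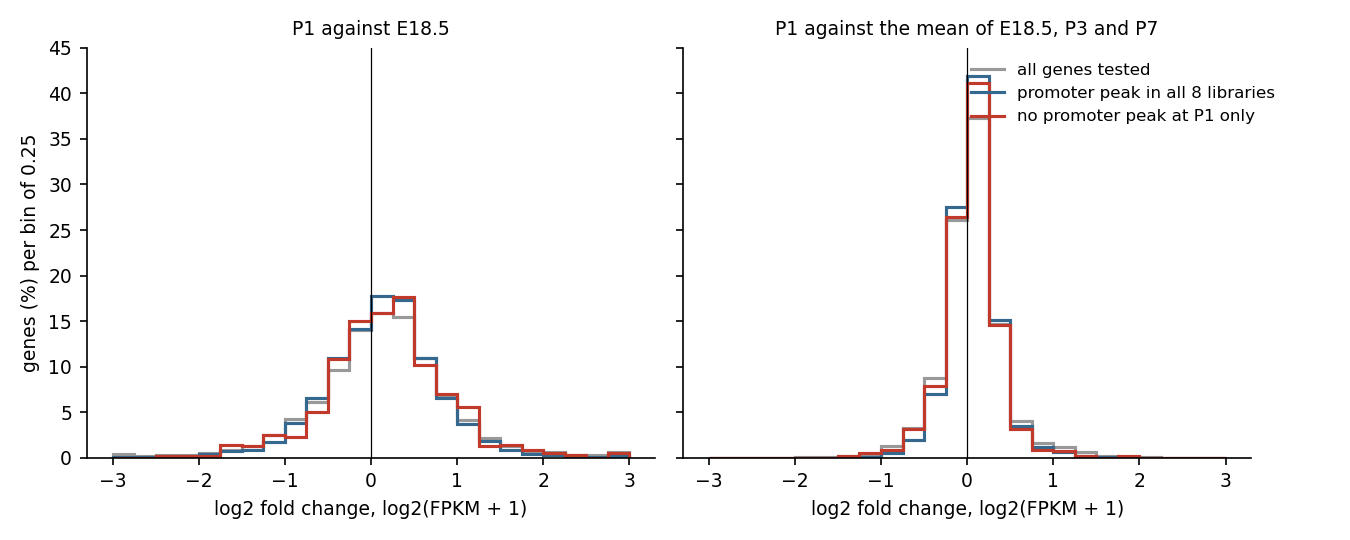
Percentage of genes (vertical axis) per bin of log2 fold change (horizontal axis) for P1 against E18.5 and for P1 against the mean of the other time points, for member genes (red), genes with a promoter peak in all 8 libraries (blue) and all genes tested (grey). The outermost bins also hold any genes with larger changes. The 3 outlines lie over each other, with medians of 0.20, 0.14 and 0.15 on the left and 0.05, 0.07 and 0.06 on the right.

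Pfkm encodes the muscle isoform of phosphofructokinase, the committed step of glycolysis. The member region with Pfkm starts nearby lies on chr15:98092908-98093695. Its midpoint is 3 bp from a start of Senp1, a SUMO protease on the minus strand. The upstream Pfkm starts lie at position 98092644, 658 bp from the midpoint, at 98092589, 713 bp away, and at 98094870, 1568 bp away. The region is therefore a Senp1 promoter by the nearest start, and Pfkm belongs to it only as 1 of 3 genes with a start within 2.5 kb, the third being the lncRNA Gm26513. Its peak had fold enrichments of 9.24 and 6.01 at E18.5, 8.21 and 9.17 at P3 before 4.83 and 6.54 at P7. It ranked above the median of all 6 lists, between 56.4 and 90.7, which few members did. The nearest P1 peaks were 51813 and 23140 bp away. A second region at the downstream Pfkm start, chr15:98108275-98109005, also had no P1 peak, and was held by the second E18.5 library at 4.01, by P3 at 9.96 and 7.77 and by P7 at 4.74 and 3.73. The first E18.5 library lacked it, so it is not a member.

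Pfkm RNA was lower at each later time point, and P1 lay between E18.5 and P3. It had 100.7 and 139.3 FPKM at E18.5, 42.1 and 66.0 at P1, then 29.4 and 34.7 at P3 before 15.5 and 12.9 at P7. Each time point lay below the one before without overlap. The log2 fold change was -1.15 ± 0.24 (SE) from E18.5 to P1 (limma, adjusted p = 0.00646) and -1.83 ± 0.24 from P1 to P7 (adjusted p = 0.00195). From P1 to P3 it was -0.71 ± 0.24 (adjusted p = 0.325), and P1 against the mean of the others gave 0.46 ± 0.19 (adjusted p = 0.219). The call from E18.5 to P1 was lost by size without the first P1 library, at -0.84, without the second E18.5 library, at -0.92, and on TPM, at -0.92. The files split Pfkm between its starts: of the 2 transcripts from the start at 98092589, beside the member region, 1 was given 25.5 and 44.9 FPKM at P1 and at most 0.272 in any other library, and the other at most 0.36 in any library. The transcripts from the starts at 98092644 and 98094870 had at most 0.115 and 0.128 FPKM. Nearly all the rest was on the transcript from the downstream start. Such a split is StringTie's estimate from reads that can fit both transcripts. Senp1 had 5.61 and 6.52 FPKM at E18.5, 9.03 and 7.20 at P1, then 6.93 and 7.88 at P3 before 8.77 and 8.18 at P7, with P1 against E18.5 at 0.36 ± 0.16 (adjusted p = 0.112).

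The labelled cell type was checked by its markers. The 16 cardiomyocyte markers were above 0 in every library, with a summed level of 29229 and 38185 FPKM at E18.5, 14930 and 23982 at P1, then 9895 and 8213 at P3 before 2614 and 1201 at P7. The sum of 12 fibroblast markers went from 492 and 491 at E18.5 to 1380 and 1565 at P1 and 3331 and 4125 at P7, and that of 7 erythroid markers from 29046 and 35395 at E18.5 to at most 41.0 after birth. At P7 the fibroblast sum thus exceeded the cardiomyocyte sum in both libraries. The sum of 10 smooth muscle and pericyte markers went from 431 and 560 at E18.5 to 1671 and 1879 at P7. That of 10 macrophage markers went from 60.8 and 55.5 to 142 and 119. These sums change over the same time points as Pfkm, and their part in any change of RNA or in the peaks was not tested. In bulk samples, fewer cells of a type and less RNA per cell cannot be told apart.

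Most other glycolysis genes had a promoter peak at P1. Of the 24 genes in the list, 13 were nearest to a promoter with a peak in all 8 libraries, 5 to one with a peak in 1 P1 library and 0 to a member, and Pfkm was the 1 gene within 2.5 kb of a member. Besides Pfkm, Eno3 and Pfkfb1 had no promoter region with a P1 peak. From E18.5 to P1, 1 of the 24 rose, Pfkfb1 at 1.31, and 4 fell: Pfkm, Aldoc at -1.37, Ldhb at -1.81 and Tpi1 at -1.10. Over all genes tested 10.1% rose and 6.06% fell. The liver and platelet isoforms of phosphofructokinase, Pfkl and Pfkp, did not pass, at -0.43 (adjusted p = 0.246) and -0.28 (adjusted p = 0.365). P1 against the mean of the others gave 2 higher, the glucose transporter Slc2a4 at 1.60 and the muscle enolase Eno3 at 1.13, and 0 lower, with a list median of -0.02.

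**Figure D5:**
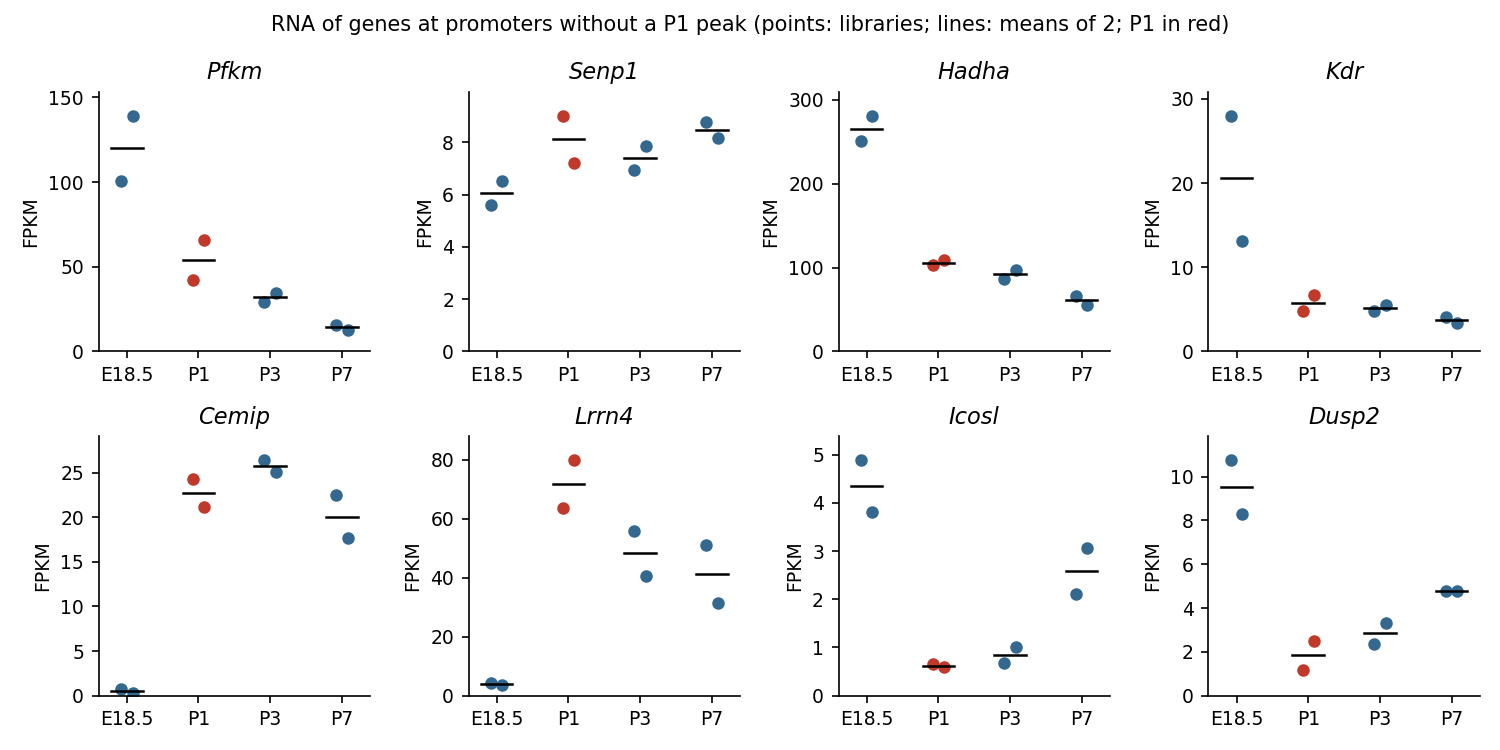
FPKM (vertical axes, from 0) of 8 genes at member promoters in each RNA-seq library (points, P1 in red) with means of 2 libraries (lines) at E18.5, P1, P3 and P7. Pfkm, Hadha and Kdr fall from E18.5, Cemip and Lrrn4 rise at P1, and Icosl and Dusp2 have their lowest mean at P1.

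The other gene lists held 0 to 2 nearest genes each, counts that were not tested. Over all genes tested, 561 of 13979 were member genes. The nearest gene was Hadha for fatty acid oxidation (1 of 20 genes), Atp5o for the respiratory chain (1 of 30), Mrpl4 and Mrps30 for the mitochondrial ribosome (2 of 28), Snrpb for splicing (1 of 30), Psmc3 for the proteasome (1 of 30), Cdk2 and Aurkb for the cell cycle (2 of 24), Mafg for AP1 factors (1 of 12) and Kdr and Flt1 for endothelial markers (2 of 12). Hadhb, Psmc5, Plk1, Tead1 and Col5a1 had a start within 2.5 kb. The lists of sarcomere genes, cardiac transcription factors, extracellular matrix, cytosolic ribosome and markers of cardiomyocytes, fibroblasts, smooth muscle and pericytes, macrophages and erythroid cells had 0 nearest genes among members.

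Hadha and Hadhb encode the 2 subunits of the mitochondrial trifunctional protein of fatty acid oxidation and share the member region. Hadha had 250.3 and 281 FPKM at E18.5, 103 and 108.5 at P1, then 86.7 and 97.2 at P3 before 66.2 and 55.5 at P7. It fell by 1.32 ± 0.13 on the log2 scale from E18.5 to P1 (adjusted p = 0.000295) and by 2.11 ± 0.13 from E18.5 to P7 (adjusted p = 1.66e-05), and Hadhb fell by 1.17 and 2.06. In the whole list, 14 of 20 genes fell from E18.5 to P1 and 0 rose, beside 6.06% and 10.1% of all genes tested. Atp5o, a subunit of ATP synthase, went from 1055 and 1175 FPKM at E18.5 to 543 and 634 at P1 and 255 and 219 at P7, with -2.23 ± 0.16 from E18.5 to P7 (adjusted p = 2.61e-05). The cardiomyocyte marker sum fell over the same time points.

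Kdr and Flt1, both VEGF receptors, were the endothelial members. Kdr had 28.0 and 13.1 FPKM at E18.5 and 4.76 and 6.70 at P1. It stayed at 3.43 to 5.49 at P3 and P7, when the peak was called again. It fell by 1.60 ± 0.32 from E18.5 to P1 (adjusted p = 0.00529). Flt1 was at 8.12 to 16.7 FPKM in all 8 libraries, with 10.6 and 8.61 at P1, and P1 against E18.5 gave -0.26 ± 0.28 (adjusted p = 0.472). The summed level of the 12 endothelial markers was 820 and 490 FPKM at E18.5, 461 and 424 at P1, then 676 and 769 at P3 before 627 and 562 at P7, so both P1 libraries were the lowest. None of these markers was nearest to a promoter with a peak in all 8 libraries. The part of endothelial cells in the peaks at Kdr and Flt1 was not tested.

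In the cell cycle list, 4 of 24 genes rose and 2 fell from E18.5 to P1, beside 10.1% and 6.06% of all genes tested. Aurkb, a mitotic kinase, had 9.56 and 12.1 FPKM at E18.5, 21.5 and 19.8 at P1, then 23.5 and 21.1 at P3 before 24.1 and 22.3 at P7, a change of 0.88 ± 0.15 from E18.5 to P1 that was under the size needed for a call, and 1.04 to P7 (adjusted p = 0.000627). Plk1, with a start within 2.5 kb of a member, rose by 1.14 ± 0.17 at P1 (adjusted p = 0.00136). Cdk2, a kinase of S-phase entry, had -0.33 ± 0.30 (adjusted p = 0.405). Mafg, a small partner of AP1-type factors, had -0.58 ± 0.17 (adjusted p = 0.0283), and Myc, a growth regulator with a P1 peak 175 bp from the region, fell by 1.14 ± 0.14 (adjusted p = 0.000569). Snrpb, Psmc3, Mrpl4 and Mrps30 stayed between -0.40 and 0.13 from E18.5 to P1 and did not pass.

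The largest rises at P1 against E18.5 were Cemip at 3.96 ± 0.18 (adjusted p = 1.86e-05), Lrrn4, a leucine-rich repeat protein, at 3.86 ± 0.25 (adjusted p = 5.46e-05), the cell cycle inhibitor locus Cdkn2a at 2.76, the kinase Pak1 at 2.34 and the actin-binding Rai14 at 2.28. Cemip had 0.703 and 0.352 FPKM at E18.5, 24.3 and 21.1 at P1, then 26.4 and 25.1 at P3 before 22.5 and 17.7 at P7. Its RNA was thus near 0 at E18.5, where both ATAC-seq libraries had the promoter peak, and high at P1, where neither had it. Its peak had fold enrichments of 4.83 and 5.51 at E18.5, and the nearest P1 peak was 1395 bp away. The largest falls were Fam107b at -2.25, Pygl, the liver glycogen phosphorylase, at -2.09, the phosphatase Dusp2 at -1.92, the costimulatory ligand Icosl at -1.71 and the repressor Prdm1 at -1.69.

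P1 against the mean of the other time points called 8 member genes, shares that lay below those of all genes, as given above. In 4 of the 8, the 2 P1 libraries lay outside all 6 others, 2 higher and 2 lower, each 0.357% of member genes tested, beside 0.73% and 0.451% of all genes. Icosl had 4.892 and 3.802 FPKM at E18.5, 0.662 and 0.588 at P1, 0.686 and 1.003 in the P3 libraries and 2.105 and 3.06 at P7, at -1.01 ± 0.16 (adjusted p = 0.0193). Tifa, an adaptor of innate immune signalling, had 1.908 and 2.096 at P1 and 3.25 to 7.65 elsewhere, at -1.03 ± 0.17 (adjusted p = 0.0191). From P1 to P3, when their peaks were called again, neither passed, with Icosl at 0.18 (adjusted p = 0.83) and Tifa at 0.89 (adjusted p = 0.209). Lrrn4 and Dtna went the other way: Lrrn4 had 63.6 and 80.0 FPKM at P1 and 3.70 to 56.0 elsewhere, at 1.75 ± 0.20 (adjusted p = 0.00929), and Dtna, a dystrophin-associated protein, had 11.02 and 13.5 at P1 and 1.75 to 9.95 elsewhere, at 1.04 ± 0.21 (adjusted p = 0.033). These calls were fragile. Leaving out the second P1 library ended all 4, with Lrrn4 at 1.59 (adjusted p = 0.0597), Icosl at -0.97 (adjusted p = 0.112), Tifa at -1.08 (adjusted p = 0.096) and Dtna at 0.90 (adjusted p = 0.204). Leaving out the first P1, the first E18.5 or the second P3 library also ended those of Icosl, Tifa and Dtna, and with no filter on low values all 4 were lost. Without the second P7 library Icosl, at -0.94, and Dtna, at 0.93, were lost, and without the second E18.5 library Dtna, at 1.07 (adjusted p = 0.0569).

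From E18.5 to P7, with the promoter peak at both ends, the largest rises were Cemip at 3.79 ± 0.18, Rai14 at 3.24 ± 0.42, Cd302 at 3.19 ± 0.15, Lrrn4 at 3.05 ± 0.25 and the anticoagulant protein S gene Pros1 at 2.91 ± 0.26. Cd302, a C-type lectin receptor, had 2.39 and 2.03 FPKM at E18.5, 10.2 and 8.86 at P1, then 14.9 and 16.9 at P3 before 26.6 and 30.1 at P7. Its groups did not overlap, and P1 lay between its neighbours. The largest falls were Klhdc8b at -2.71 ± 0.21, Mtus2 at -2.63 ± 0.34, the acetyl-CoA synthetase Acss1 at -2.32 ± 0.26, Arl4d at -2.32 ± 0.29 and Atp5o. Klhdc8b had 23.1 and 28.9 FPKM at E18.5, 8.11 and 12.3 at P1, then 6.64 and 6.84 at P3 before 3.34 and 2.88 at P7.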

How the data were processed

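ATAC-seq and RNA-seq of mouse cardiomyocytes at E18.5, P1, P3 and P7 were used, with 2 libraries each. The 6 rat libraries were not used here, and the 6 HiChIP libraries were not analysed here. Per the study's methods and the labels, the authors trimmed ATAC-seq reads with cutadapt, aligned them to mm10 with Bowtie2, removed duplicates with Picard and called peaks per library with MACS2. The deposited score is the authors' rescaled q value. The deposited fold enrichment is the authors' ratio of signal to background at the summit. Each peak's deposited −log10 p and −log10 q are MACS2 output as well and were not used for tests. Read depth behind the peaks is not given in these lists. The deposited FPKM, TPM and coverage of each transcript come from the authors' HISAT2 2.1.0 and StringTie 1.3.5 runs with GENCODE vM21, per the file headers and labels. TPM is scaled to a fixed total, and coverage is the mean depth per base.

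The FPKM of a gene was summed over transcripts. Coverage over FPKM gave 29.3 to 37.5 M aligned reads per RNA-seq library. Genes with at least 1 FPKM in at least 2 libraries (13979 of 55450) were tested as log2(FPKM + 1) with limma 3.58.1 (lmFit, contrasts.fit, eBayes with a trend, two-sided) in 1 fit of 8 libraries, with Benjamini-Hochberg adjustment over all of them. The pseudocount understates the change of low genes. In simulated data, limma recovered 99.5% of 200 genes changed by a log2 fold change of 2 between P1 and E18.5, with 6 false calls among 13979 genes. The 200 were drawn from genes with a mean log2(FPKM + 1) above 3. Recovery of lower genes, of smaller changes and in the other comparisons was not simulated. The nearest transcript start named each region's gene. Shared or overlapping genes, such as antisense ones, cannot be told apart where counting did not use strand. The members and gene lists were chosen with earlier results of these data known, and no list is used as independent support. Named genes were Pfkm and the glycolysis list, genes the study names at a member, the 5 largest called rises and falls without overlap in 3 comparisons, the 8 members of highest smallest fold enrichment, those at the edges of the rule, and list members. Tspan9 was added after its values were seen. Alternatives covered the promoter limit, starts, list length, peak overlap, pseudocount, filter, unit, scaling, replicate block and leaving out each library.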

Additional observations from a re-analysis of the deposited data

How the results depend on the processing

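The number of members, 656, stayed within 622 to 671 with a promoter limit of 1 or 5 kb, RefSeq starts or P1 peaks within 250 bp counted. It was 265 with lists of equal length, 356 with the upper 0.5 of each list, 1818 when peaks had to cover at least 0.25 of the region, and 656 to 2806 with 1 ATAC-seq library left out. Members made up 14.2% to 63.2% of the promoters in the lowest quintile of E18.5 fold enrichment over these alternatives. On TPM, P1 against E18.5 gave 104 member genes higher (17.6%) and 27 lower (4.58%), beside 16.6% and 5.73% of all genes. P1 against the other time points gave 9 higher (1.525%, beside 1.97%), and P7 against E18.5 gave 148 higher (25.1%, beside 21.9%). The median of all genes was 0.33 and 0.35 in place of 0.15 for the comparisons with E18.5. With a mean FPKM of at least 5, P1 against E18.5 gave 15 lower (3.94%, beside 4.61% of all genes). With the same filter P7 against P1 gave 7 higher (1.84%, beside 3.38%) and P1 against the others 0 lower (beside 0.839%). P1 against the others gave 0 higher and 0 lower with no filter, beside 0.0% and 0.0% of all genes. It gave 5 lower with a pseudocount of 0.1 (0.891%, beside 1.17%) and 2 higher with size factors (0.357%, beside 1.27%). P7 against P1 gave 24 lower with a pseudocount of 0.1 (4.28%, beside 7.11% of all genes). Among the 25 tested genes of the 35 members that also met the rule at equal list length, P1 against E18.5 gave 4 higher and 0 lower (16.0% and 0.0%, beside 10.1% and 6.06% of all genes), P7 against E18.5 gave 7 and 0 (28.0% and 0.0%, beside 15.4% and 12.3%), and P7 against P1 and P1 against the others gave 0 and 0. With 1 RNA-seq library left out, and the lone library of its time point assumed to vary like the others, P1 against E18.5 gave 50 to 70 higher and 25 to 37 lower, P7 against E18.5 gave 72 to 104 and 40 to 54, P7 against P1 gave 8 to 17 and 11 to 20, P1 against the others gave 1 to 5 and 0 to 5, and P3 against P1 gave 0. Over all genes the same fits called 9.12% to 11.5% higher and 5.015% to 7.45% lower for P1 against E18.5, 14.45% to 16.7% and 11.4% to 12.6% for P7 against E18.5, 2.35% to 3.799% and 3.79% to 6.875% for P7 against P1, and 0.229% to 2.003% and 0.429% to 0.894% for P1 against the others. Replicate numbers did not pair the time points, with correlations of deviations from -0.096 to 0.171. With the replicate block the calls were 56 higher and 30 lower for P1 against E18.5, 91 and 42 for P7 against E18.5, 13 and 15 for P7 against P1 and 6 and 3 for P1 against the others. Over all genes the shares with that block were, in the same order, 10.2% and 6.07%, 15.5% and 12.3%, 3.455% and 5.465%, and 1.33% and 0.787%. Of 4970 alternative values of named genes, 106 lost a call, 50 gained one and 0 changed sign while called. The cause was not tested. Peak lists hold no value below their threshold, so a weak P1 signal and none cannot be told apart.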
